A study of Mus musculus with 10 samples.

Results

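Type IV collagen is the network-forming collagen of basement membranes. Its 6 chains are encoded by Col4a1 to Col4a6, and this account follows their transcripts in mouse glomeruli, the filtering units of the kidney. The members were all probe sets of the array whose platform annotation names exactly 1 gene and that gene is one of these 6. This gave 12 probe sets of 45037 tested, with 2 each for Col4a1, Col4a3, Col4a5 and Col4a6, 3 for Col4a4 and 1 for Col4a2. The chains are 6 of the 18193 genes measured by single-gene probe sets.

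The mutants were 5 males heterozygous for a knock-in of the R394W mutation of Wt1 (Wt1 +/R394W), and they were set against 5 male Wt1 +/+ littermates. All were unweaned, 27 days old and on FVB/N after 4 generations of backcrossing. The mutants chosen had little albuminuria and, under the light microscope, no mesangial lesions. Magnetic beads were perfused through the heart to isolate glomeruli, and the RNA of each mouse was hybridised to 1 array. The allele is carried in every cell, since it is a knock-in and not a podocyte-specific transgene. WT1 is a zinc finger transcription factor that, in the glomerulus, marks podocytes, the epithelial cells covering the capillaries. Values are log2 expression after RMA (robust multi-array average), and a change is the mean of Wt1 +/R394W mice minus the mean of Wt1 +/+ mice in log2 units.

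Chains of type IV collagen assemble into trimers inside the cell, which join into networks after secretion. The trimer of Col4a1 and Col4a2 chains is found in nearly all basement membranes and forms the membrane of the embryonic glomerulus. As the filter matures, podocytes lay down the trimer of Col4a3, Col4a4 and Col4a5 chains in its place. Loss of any of these mature chains causes Alport syndrome in patients. The Col4a6 chain joins Col4a5 chains in Bowman's capsule, which surrounds the glomerulus, and around smooth muscle.

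The genes lie in neighbouring pairs, Col4a1 with Col4a2 on chromosome 8, Col4a3 with Col4a4 on chromosome 1 and Col4a5 with Col4a6 on chromosome X. In each pair no other protein-coding gene of the RefSeq table lies between them. The promoter windows of RefSeq (build GRCm38.p6, 250 bases before to 50 bases after each gene's start) held an entry for 5 of the chains. Those of Col4a1 and Col4a2 are shown because these genes are read from opposite strands out of one region and their signals varied together across mice. Their starts are 21 bases apart, and capitals mark the 78 bases that belong to both windows, each written 5′ to 3′ on its own gene's strand. The chain without an entry was Col4a3. The window of its neighbour Col4a4 is shown beside them, in lower case throughout. How much of it Col4a3 shares could not be measured.
Col4a1 (GRCm38.p6, chr8:11312777-11313076, minus strand): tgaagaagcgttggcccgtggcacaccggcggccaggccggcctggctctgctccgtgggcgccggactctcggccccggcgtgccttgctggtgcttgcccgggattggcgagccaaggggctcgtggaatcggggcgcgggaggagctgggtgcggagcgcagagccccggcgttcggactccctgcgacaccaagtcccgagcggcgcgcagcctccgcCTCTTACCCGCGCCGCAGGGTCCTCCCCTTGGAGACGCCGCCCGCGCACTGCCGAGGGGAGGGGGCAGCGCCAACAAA
Col4a2 (GRCm38.p6, chr8:11312555-11312854, plus strand): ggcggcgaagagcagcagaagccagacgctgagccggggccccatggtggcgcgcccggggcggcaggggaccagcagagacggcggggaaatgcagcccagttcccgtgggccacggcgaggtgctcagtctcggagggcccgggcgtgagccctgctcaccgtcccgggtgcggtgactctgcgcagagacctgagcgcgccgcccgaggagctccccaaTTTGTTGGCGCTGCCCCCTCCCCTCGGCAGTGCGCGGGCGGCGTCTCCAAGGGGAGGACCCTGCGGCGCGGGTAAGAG
Col4a4 (GRCm38.p6, chr1:82586800-82587099, minus strand): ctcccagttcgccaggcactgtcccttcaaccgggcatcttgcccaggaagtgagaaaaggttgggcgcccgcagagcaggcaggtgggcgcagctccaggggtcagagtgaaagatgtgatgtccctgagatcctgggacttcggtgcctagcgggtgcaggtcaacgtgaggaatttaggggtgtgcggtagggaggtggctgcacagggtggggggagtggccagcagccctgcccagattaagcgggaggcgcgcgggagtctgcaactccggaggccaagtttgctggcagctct

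GC content was 74.0% in the Col4a1 window, 73.7% in the Col4a2 window and 63.3% in the Col4a4 window, against a median of 52.7% over all 32851 windows of the table. It was 52.7% in the Col4a5 window and 48.3% in the Col4a6 window, whose gene starts are 1343 bases apart. The SP1 box GGGCGG, searched on both strands, occurred 1 time in the Col4a1 window, 3 times in the Col4a2 window, 1 time each in the Col4a5 and Col4a6 windows and 0 times in the Col4a4 window. The Col4a1 match lies in the shared bases and is the same site as 1 of the 3 of Col4a2. This box is present in 35.7% of all windows. The box CCAAT, in 37.4% of all windows, occurred 1 time each for Col4a1, Col4a2 and Col4a5 and 0 times for Col4a4 and Col4a6. None of the 5 windows held TATAAA (13.6% of all windows), the WT1-type letters GTGGGAG (9.73%), the EGR-type letters GCGGGGGCG (2.91%) or the LMX1B-type core TAATTA (5.29%). No motif contains another. These are letter matches in short windows and say nothing of the factors' binding.

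Arrays were alike, with medians of 6.31 to 6.39 on the log2 scale and correlations of 0.985 to 0.997 over all probe sets. Podocyte markers were strong in the preparations, with Podxl at 14.40 ± 0.11 in Wt1 +/R394W and 14.41 ± 0.04 in Wt1 +/+ glomeruli (SD, n = 5 each). Of the 13 measured podocyte markers Podxl had the change closest to 0, and the changes ran from -0.37 to 0.26. Amounts of tubule differed between preparations of both genotypes. The tubule score, a mean over 23 proximal and distal tubule markers per array, ran from 6.92 (mutant 5) to 9.75 (mutant 4) in mutants and between 6.79 and 8.96 in wild types, where wild type 5 was lowest. Over the whole table, 384 of 45037 probe sets (0.853%) differed between genotypes at an adjusted p under 0.05 by limma, with 0.391% higher and 0.462% lower in mutants.

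None of the 12 type IV collagen probe sets differed between genotypes at an adjusted p under 0.05 (limma, adjusted over all 45037 probe sets), where 0.853% of all probe sets did. Adjusted p-values ran from 0.475 to 0.978, and 1 probe set, of Col4a5, had an unadjusted p under 0.05, as did 9.36% of all probe sets. In 0 of 12 were the 5 mutants apart from the 5 wild types, against 2.78% of all probe sets. The embryonic chains and the mature chains had changes of opposite sign. All 3 probe sets of Col4a1 and Col4a2 had a positive change, of 0.03 to 0.07, and all 7 of Col4a3, Col4a4 and Col4a5 a negative one, of -0.30 to -0.02. The median over the 12 was -0.08, beside -0.002 over all probe sets. Probe sets of 1 gene read the same RNA, so these signs are not separate observations.

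**Figure D1:**
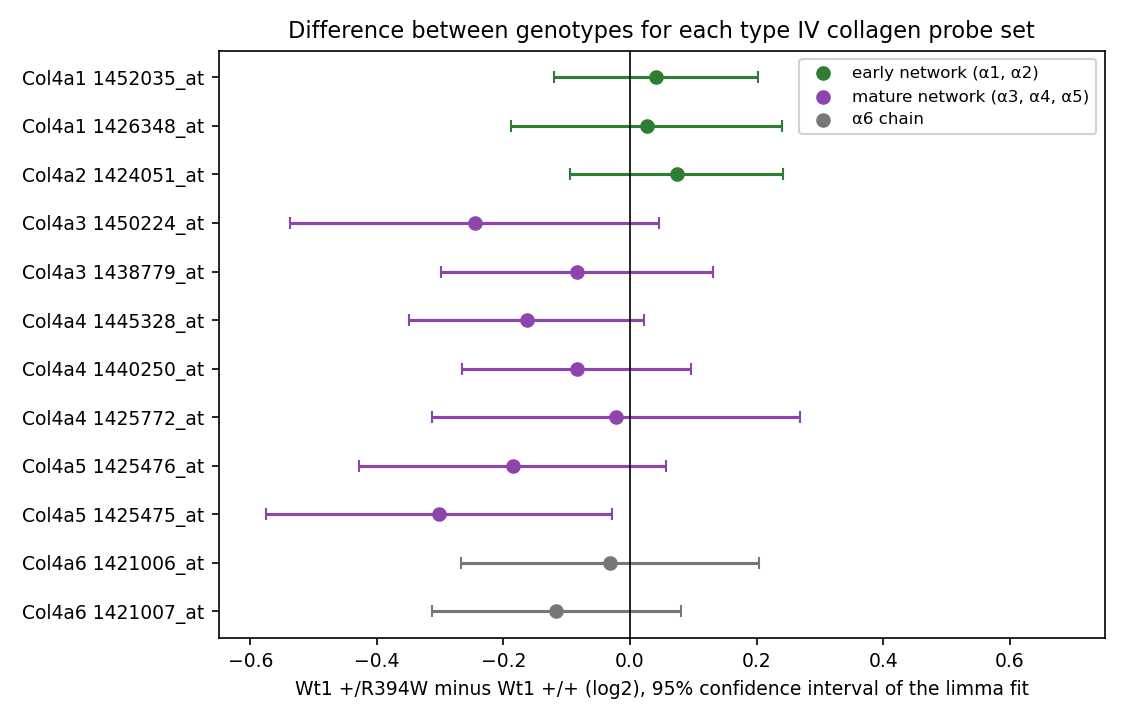
Change of each type IV collagen probe set between Wt1 +/R394W and Wt1 +/+ glomeruli (n = 5 mice each) on the log2 scale, with points for the limma estimate and bars for its 95% confidence interval, which is not adjusted for the number of probe sets. The 3 probe sets of Col4a1 and Col4a2 lie just right of 0 and all others lie left of it, and only the interval of Col4a5 1425475_at (-0.58 to -0.03) does not reach 0.

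Col4a1, which encodes the α1 chain of the ubiquitous network, was close to level between the genotypes. Its probe set 1452035_at read 14.07, 13.93, 13.99, 14.07 and 13.80 in mutants 1 to 5, against 13.90, 14.10, 13.83, 13.86 and 13.96 in wild types 1 to 5. The highest value of all belonged to wild type 2 and the lowest to mutant 5, so the groups overlapped over nearly their whole range. The change was 0.04 ± 0.07 (SE, n = 5 each, limma adjusted p = 0.910), and its 95% interval corresponds to a mutant level between 0.920 and 1.15 times that of the wild type. The other probe set of Col4a1, 1426348_at, averaged 13.08 ± 0.13 in mutants and 13.06 ± 0.19 in wild types (SD, n = 5 each), a change of 0.03 ± 0.10 (SE, limma adjusted p = 0.959). Its sign was not stable and ran from -0.02 to 0.09 when single mice were left out.

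Col4a2 encodes the α2 chain, the obligate partner of α1. Its only probe set, 1424051_at, read 13.41, 13.23, 13.44, 13.45 and 13.22 in mutants 1 to 5, against 13.19, 13.40, 13.14, 13.28 and 13.38 in wild types 1 to 5. Mutants 1, 3 and 4 were above every wild type, while mutants 2 and 5 lay among them. The change of 0.07 ± 0.08 (SE, n = 5 each) did not pass (limma adjusted p = 0.835), with an interval of 0.936 to 1.18 times the wild-type level. Without wild type 3, the lowest array, it was 0.04 (limma adjusted p = 0.898). Readings of Col4a1 and Col4a2, and of Col4a4 1445328_at and 1440250_at with means of 13.51 and 13.29 over the 10 arrays, lie near the upper end of the array's scale, whose highest value is 14.89, and whether changes are compressed there was not tested.

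Col4a3, the α3 chain of the mature network, had its mutants spread widely on its brighter probe set. This one, 1450224_at, read 13.02, 12.26, 12.52, 12.57 and 12.95 in mutants 1 to 5, against 12.95, 13.04, 12.84, 12.79 and 12.92 in wild types 1 to 5. Mutants 2, 3 and 4 were below every wild type, and mutants 1 and 5 stood within the wild-type range. The SD was 0.32 among mutants, the widest of the 12 probe sets, and 0.10 among wild types (n = 5 each). The change was -0.25 ± 0.13 (SE), with an interval of 0.689 to 1.03 times the wild-type level, and did not pass (limma adjusted p = 0.629). Without mutant 2, the lowest array, it was -0.14 (limma adjusted p = 0.821). The other Col4a3 probe set, 1438779_at, averaged 11.70 ± 0.17 in mutants and 11.78 ± 0.16 in wild types (SD, n = 5 each). There, mutants 2 and 4 but not mutant 3 were below every wild type, and the change was -0.08 ± 0.10 (SE, limma adjusted p = 0.852).

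Col4a4 encodes the α4 chain and is the head-to-head neighbour of Col4a3. Probe set 1445328_at read 13.63, 13.35, 13.34, 13.26 and 13.53 in mutants 1 to 5, against 13.63, 13.77, 13.53, 13.50 and 13.51 in wild types 1 to 5. As for Col4a3, mutants 2, 3 and 4 were the ones below every wild type. The change of -0.16 ± 0.08 (SE, n = 5 each) had a limma adjusted p of 0.606 and an interval of 0.785 to 1.02 times the wild-type level. The remaining Col4a4 probe sets had smaller changes, -0.08 ± 0.08 (SE, limma adjusted p = 0.820) for 1440250_at and -0.02 ± 0.13 (SE, limma adjusted p = 0.978) for 1425772_at. For 1425772_at the sign turned under 5 of 21 alternative settings, and no mutant was below every wild type.

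Col4a5 encodes the α5 chain, which is shared by the mature network and the network with α6. Its probe set 1425475_at had the largest change of the 12, with 10.95, 10.89, 11.02, 10.59 and 11.25 in mutants 1 to 5, against 11.22, 11.53, 11.05, 11.09 and 11.32 in wild types 1 to 5. Mutants 1 to 4 were below every wild type, and mutant 5 lay among them. The change was -0.30 ± 0.12 (SE, n = 5 each), an interval of 0.671 to 0.981 times the wild-type level. It did not pass over all probe sets (limma adjusted p = 0.475). Permuting the genotypes of the 10 mice exactly for that probe set alone gave p = 0.0556 (exact, two-sided), and the design allows none below 0.00794. The same test gave 0.111 to 0.889 (exact, two-sided) for the other 11 probe sets, with 0.175 for the other one of Col4a5. The brighter Col4a5 probe set, 1425476_at, averaged 12.09 ± 0.17 in mutants and 12.27 ± 0.21 in wild types (SD, n = 5 each), a change of -0.19 ± 0.11 (SE, limma adjusted p = 0.673). Here mutant 4 alone was below every wild type, and without it the change was -0.12 (limma adjusted p = 0.794).

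Col4a6 encodes the α6 chain of Bowman's capsule and smooth muscle. Probe set 1421006_at read 7.36, 7.36, 7.39, 6.92 and 7.54 in mutants 1 to 5, against 7.31, 7.52, 7.36, 7.21 and 7.33 in wild types 1 to 5. Mutant 4 was the lowest of the 10 and mutant 5 the highest, and the other mutants stood among the wild types. The change was -0.03 ± 0.11 (SE, n = 5 each, limma adjusted p = 0.956), and that of 1421007_at was -0.12 ± 0.09 (SE, limma adjusted p = 0.761). Mutant 4 was also the array with the highest tubule score.

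**Figure D2:**
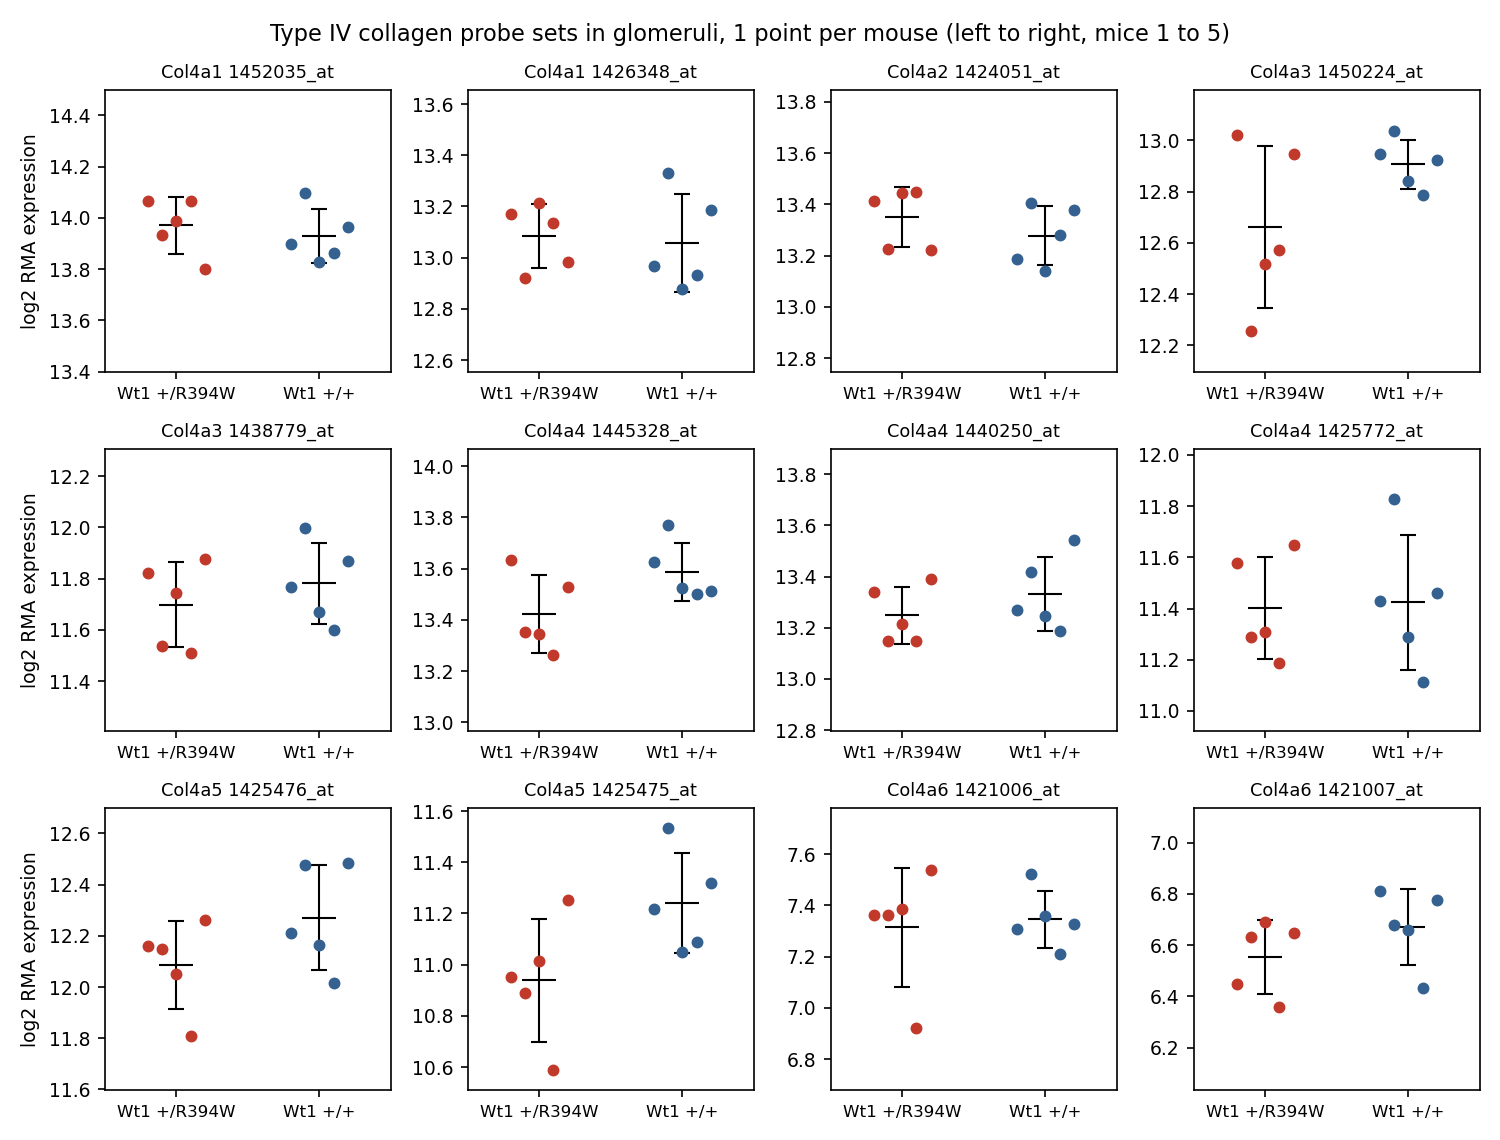
Log2 RMA expression of each of the 12 type IV collagen probe sets, with 1 point per mouse (Wt1 +/R394W left, Wt1 +/+ right), the mean as a dash and the SD as bars (n = 5 each). All panels span the same range of log2 units around their own centre, and the genotypes overlap in every panel.

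Averaged over Col4a1 and Col4a2, with 1 probe set per gene, the embryonic network read 13.74, 13.58, 13.72, 13.76 and 13.51 in mutants 1 to 5, against 13.54, 13.75, 13.48, 13.57 and 13.67 in wild types 1 to 5. The difference of means was 0.06. For the mature network, the mean of Col4a3, Col4a4 and Col4a5 was 12.94, 12.58, 12.64, 12.55 and 12.91 in mutants 1 to 5, against 12.93, 13.09, 12.84, 12.77 and 12.97 in wild types 1 to 5. The difference of means was -0.20, and mutants 2, 3 and 4 were below every wild type. Mutants 2, 3 and 4 share 1 run of neighbouring animal numbers with wild types 3 and 4, which had the lowest mature means of the wild types. Within that run the difference was -0.22 (3 mutants, 2 wild types), and in the only other run, of mutant 1 and wild type 2, it was -0.16. With the run as a block, over 4 mutants and 3 wild types, the changes of Col4a3 1450224_at, Col4a4 1445328_at and Col4a5 1425475_at were -0.26, -0.18 and -0.34, with limma adjusted p-values of 0.612, 0.569 and 0.540. What such a run stands for is not in the labels. The members were known when these averages were formed, so they are given with no test.

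The balance of both networks within an array, the mature mean minus the embryonic mean, averaged -0.94 ± 0.24 in mutants and -0.68 ± 0.07 in wild types (SD, n = 5 each). Its absolute value depends on the probes and has no meaning of its own, so only its differences between mice are read. Mutants 2, 3 and 4, at -0.99, -1.08 and -1.21, were below every wild type, the lowest of which was wild type 4 at -0.80. Mutant 1, also at -0.80, was level with that mouse, and mutant 5, at -0.60, had the highest balance of all 10. The difference of means, -0.26, was -0.34 without mutant 5 and -0.19 without mutant 4. Mutant 4 also had the highest tubule score (9.75) and the lowest mean of podocyte markers (12.38), and mutant 5 the lowest tubule score of the mutants (6.92). Among wild types the highest tubule score (8.96) was that of wild type 1, whose balance was -0.61, the highest of that genotype. Wild type 4 had nearly the same score (8.94) and the lowest balance of that genotype (-0.80). Wild type 5, with the lowest score (6.79), had a balance of -0.70. The part of tubule and podocyte content in the balance was not tested.

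**Figure D3:**
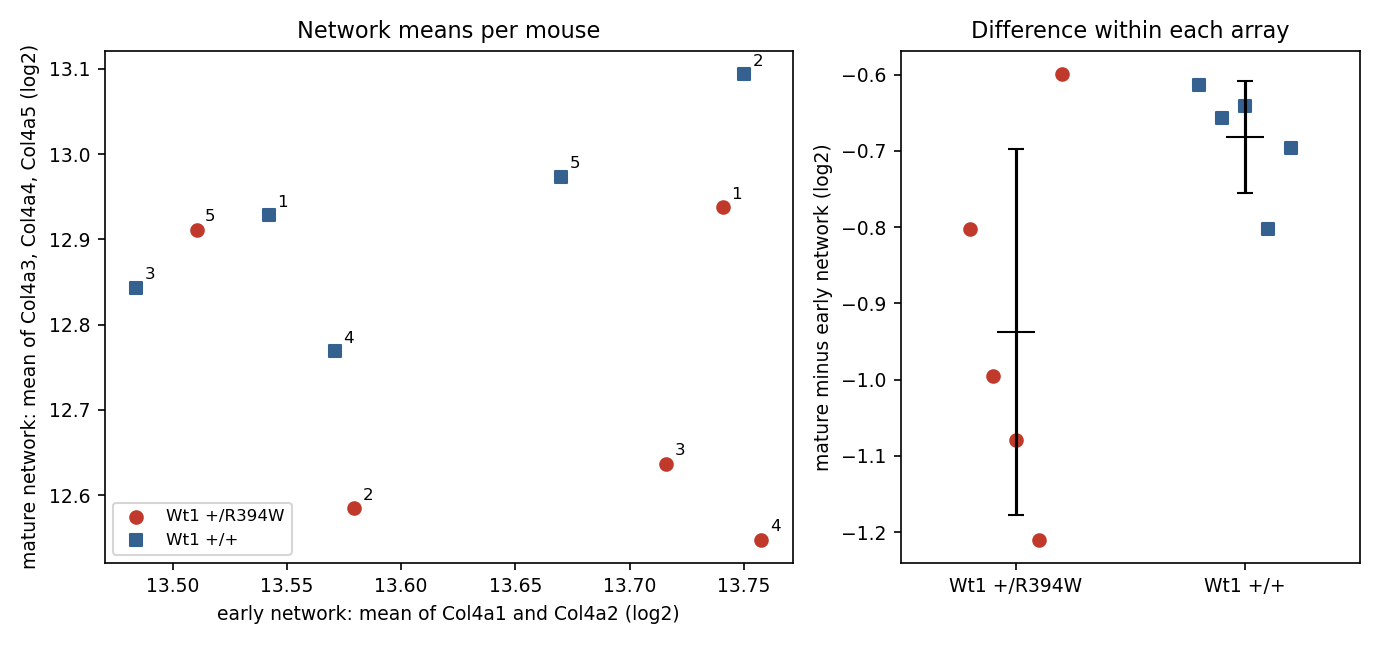
Left, the mean of the mature chains against the mean of the embryonic chains for each mouse, with mouse numbers beside the points, and right, the mature minus the embryonic mean per array with the mean as a dash and the SD as bars (log2 units, n = 5 mice per genotype). Mutants 2, 3 and 4 lie below the wild types on the mature axis, whereas on the embryonic axis the genotypes are mixed.

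RNA of whole glomeruli cannot tell fewer cells of a type apart from less RNA per cell. Podocytes make the mature chains. Of 13 measured podocyte markers 0 were called, where 1.26% of all genes were. The unadjusted p was under 0.05 (limma) for 4 of the 13, against 9.36% of all probe sets. Of these, Lmx1b (-0.37), Kirrel (-0.33) and Synpo (-0.24) were lower in mutants and Cdkn1c (0.26) was higher. The mean of the 13 per array ran from 12.38 (mutant 4) to 12.64 (mutant 3) in mutants and from 12.58 to 12.74 in wild types. The part of this mean in the chain values was not tested. Of the 13, 11 had a negative change, and the median was -0.08. Over the 10 arrays r with the podocyte mean, as a description, was 0.76 for Col4a6, 0.73 for Col4a5, 0.54 for Col4a4 and 0.28 for Col4a3, against -0.31 for Col4a1 and -0.37 for Col4a2. No marker of that list sat at the floor of the scale. Of 12 endothelial markers, 0 were called and 2 had an unadjusted p under 0.05 (limma). Of these 12, 11 also had a negative change, with a median of -0.09, close to that of the podocyte markers. The endothelial mean per array was 11.90 to 12.16 in mutants and 12.02 to 12.23 in wild types. Of 10 mesangial and smooth muscle markers, 0 were called and 2 had an unadjusted p under 0.05 (limma). Of these 10, 7 had a positive change and 3 a negative one, with a median of 0.12. The mesangial and smooth muscle mean per array was 10.84 to 11.31 in mutants and 10.57 to 10.91 in wild types. With the tubule score as a covariate the changes of Col4a3 1450224_at, Col4a4 1445328_at and Col4a5 1425475_at were -0.22, -0.16 and -0.25, with limma adjusted p-values of 0.603, 0.576 and 0.360. The smaller changes of Col4a3 1438779_at and Col4a4 1440250_at were both -0.05 in that fit, against -0.08 without the covariate. Those of Col4a4 1425772_at and Col4a6 1421006_at turned to 0.01 and 0.003.

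Over all 10 arrays, with both genotypes pooled, correlations were higher within the embryonic and within the mature chains than between them. Both comparisons of a Col4a1 with the Col4a2 probe set had r of 0.85 and 0.88. Among the 16 pairs of probe sets from different mature genes, r ran from 0.55 to 0.91 with a median of 0.77, and the 7 pairs of probe sets of 1 gene had a median of 0.75. Between embryonic and mature chains, r over 21 pairs ran from -0.16 to 0.56 with a median of 0.15. Expressed as deviations from each genotype's mean, which removes the genotype difference, the medians were 0.79 for mature with mature and 0.24 for embryonic with mature pairs. By the medians, this gap was wide within mutants and small within wild types. Between embryonic and mature probe sets the median r was -0.25 within the 5 mutants and 0.81 within the 5 wild types. Among mature genes it was 0.81 within mutants and 0.86 within wild types. Within wild types the 21 embryonic with mature pairs ran from 0.39 to 0.99 and the 16 mature pairs from 0.51 to 0.97. Within mutants these ranges were -0.77 to 0.29 and 0.37 to 0.95. With 1 probe set per gene, and among the embryonic with mature gene pairs only, those with Col4a5 had the lowest r within mutants. Col4a1 with Col4a5 had r = -0.68 within mutants and 0.83 within wild types, and Col4a2 with Col4a5 had -0.70 and 0.71 in the same order. The other embryonic with mature gene pairs ran from -0.205 to 0.099 within mutants and from 0.388 to 0.875 within wild types. With 5 mice a genotype these values are a description, and the difference between genotypes was not tested. Col4a6 had a median r of 0.56 over 14 pairs with mature probe sets and -0.25 over 6 pairs with embryonic ones. For the 6 embryonic pairs the median was -0.56 within mutants (-0.71 to -0.32) and 0.36 within wild types (-0.01 to 0.79). For the 14 mature pairs it was 0.63 within mutants and 0.65 within wild types. These differences between genotypes were not tested either.

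**Figure D4:**
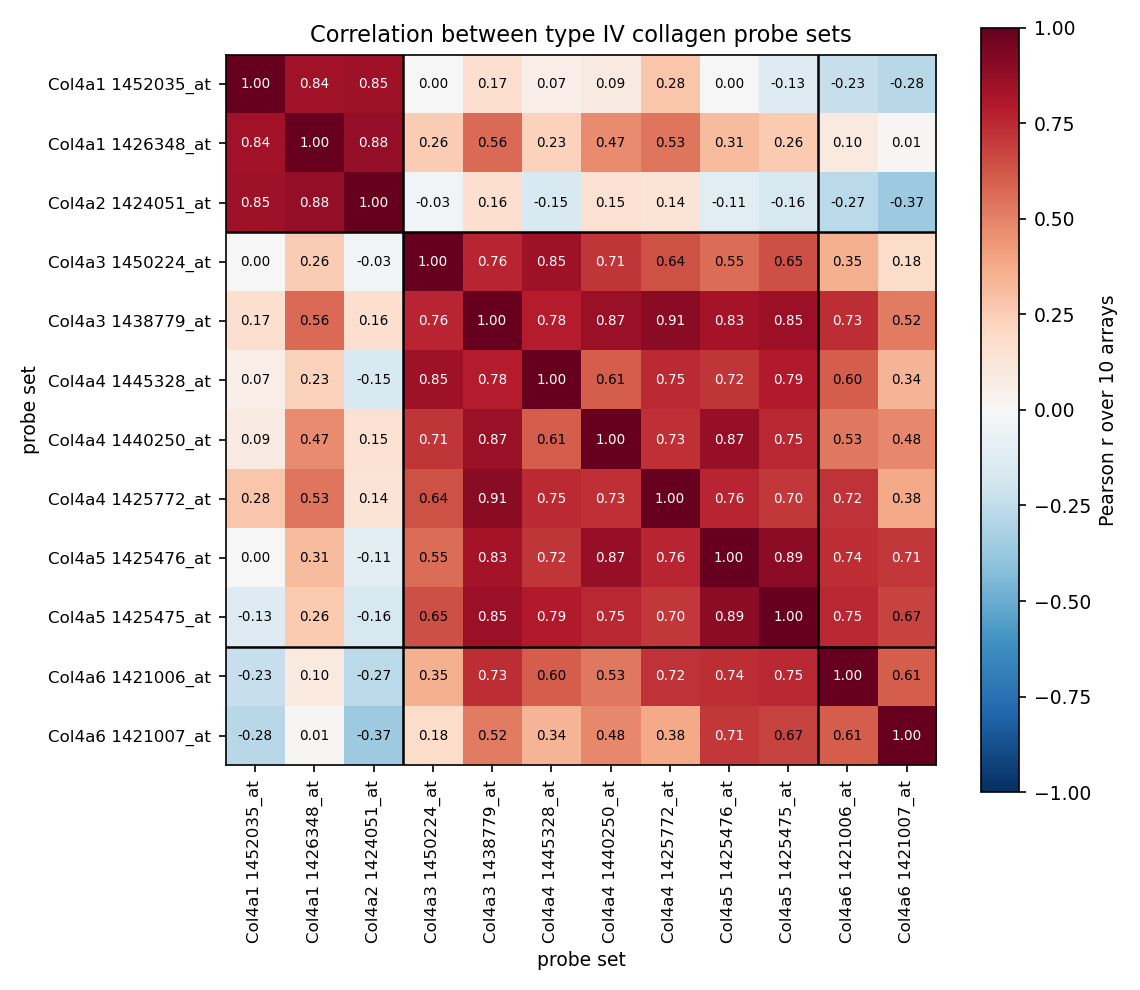
Pearson correlation over the 10 arrays, both genotypes pooled, between each pair of type IV collagen probe sets, with lines separating the embryonic chains (Col4a1, Col4a2), the mature chains (Col4a3, Col4a4, Col4a5) and Col4a6. The block of embryonic chains reaches 0.84 to 0.88, and the block of mature chains 0.55 to 0.91, while values between both blocks are at most 0.56.

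With 1 probe set per gene there were 15 pairs of chains, and p-values come from 100000 permutations of the arrays with Benjamini-Hochberg adjustment over the 15. Both pairs that passed for Pearson's r are head-to-head neighbours. Col4a3 and Col4a4 had r = 0.85 (permutation p = 0.00151, adjusted 0.0226) and Spearman's rho = 0.94 (permutation p = 0.00019, adjusted 0.00285). For Col4a1 and Col4a2, r was 0.85 (permutation p = 0.00383, adjusted 0.0287) and rho was 0.81 (permutation p = 0.00733, adjusted 0.0550). Without the 2 arrays farthest from the median of the first gene, r was 0.93 and 0.87. Within mutants alone r was 0.83 for Col4a3 with Col4a4 and 0.85 for Col4a1 with Col4a2, and within wild types alone it was 0.87 and 0.84. The third pair of neighbours, Col4a5 and Col4a6, had r = 0.74 (permutation p = 0.0141, adjusted 0.0707) and rho = 0.44 (permutation p = 0.203, adjusted 0.595).

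Among the other pairs, none passed for either coefficient. Col4a4 and Col4a5 had r = 0.72 (permutation p = 0.0201, adjusted 0.0754) and rho = 0.70 (permutation p = 0.0305, adjusted 0.147). Without the 2 arrays farthest from the Col4a4 median, r was 0.29. Leaving out the extremes of 1 gene also narrows its range, so this drop cannot show whether the correlation rests on them. Col4a3 and Col4a5 had r = 0.55 (permutation p = 0.0980, adjusted 0.245) and rho = 0.67 (permutation p = 0.0392, adjusted 0.147), with r at 0.82 without 2 such arrays. Col4a4 and Col4a6 had r = 0.60 (permutation p = 0.0619, adjusted 0.186), which was -0.09 without 2 such arrays. Over all probe sets, r ran from 0.64 to 0.91 for the 6 pairs of Col4a3 with Col4a4, from 0.55 to 0.85 for the 4 of Col4a3 with Col4a5 and from 0.70 to 0.87 for the 6 of Col4a4 with Col4a5, so these ranges overlap. The arrays share their normalization, and the amount of tubule differs between them. Col4a5 and Col4a6 ran against the tubule score (r = -0.73 and -0.61 over 10 arrays, as a description), Col4a3 and Col4a4 less so (-0.34 and -0.24), and Col4a1 and Col4a2 had r of 0.35 and 0.11.

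Ranked against 12260 genes, those with a mean of at least 6 and the chains, Col4a2 was the 10th closest to Col4a1 and Col4a4 the 14th closest to Col4a3 by Pearson's r over 10 arrays. The 5 genes other than chains that were closest to Col4a1 were Stard9 (r = 0.91), Myl4 (0.90), Csad (0.88), Gas6 (0.88) and Akap13 (0.87). Those closest to Col4a3 were Slc6a9 (0.94), Pitpnm3 (0.92), Kcna5 (0.87), Tmem68 (0.87) and Prkg2 (0.87), and those closest to Col4a5 were Vasn (0.97), Sema3e (0.94), Ksr1 (0.92), Klf16 (0.91) and Atp8b3 (0.90). With 10 arrays and this many genes such values are a description of these arrays.

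Partners of the chains were examined in lists of folding and export, crosslinking, receptors, degradation, laminins and transcription factors. Of 65 measured partner genes, 3 rose and 0 fell, where 1.26% of all genes passed (0.566% higher, 0.698% lower). The median change was 0.06, beside 0.004 over all genes, and 42 of the 65 had a positive change. The 3 that rose were P4ha3, Mmp2 and Lama1. The lists were chosen with earlier results of these data known, so the counts are a description and no set was tested.

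Among 19 measured genes that fold and modify collagen in the endoplasmic reticulum, P4ha3 rose and 0 fell. P4ha3 encodes a catalytic subunit of prolyl 4-hydroxylase, which hydroxylates proline in collagen chains. Its probe set 1446951_at (chromosome 7) read 4.94, 5.32, 5.32, 4.98 and 5.40 in mutants 1 to 5, against 4.05, 4.06, 4.21, 3.91 and 4.33 in wild types 1 to 5. The genotypes were fully apart, at low signal, and the rise was 1.08 ± 0.11 (SE, n = 5 each, limma adjusted p = 0.000702). P3h3, a collagen prolyl 3-hydroxylase family member, came next with 0.34 ± 0.08 (SE, limma adjusted p = 0.0998). Serpinh1, the collagen chaperone HSP47, changed by 0.04 ± 0.15 (SE), and the major prolyl 4-hydroxylase subunit gene P4ha1 by -0.20 ± 0.28 (SE), with limma adjusted p-values of 0.958 and 0.879. Serpinh1 and P4ha1 were named after their values were seen.

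Of 9 export genes, which serve the transport carriers that hold collagen on its way out of the endoplasmic reticulum, 0 were called. Sar1b changed by 0.14 ± 0.06 (SE, limma adjusted p = 0.503) and Sec24d by 0.22 ± 0.10 (SE, limma adjusted p = 0.528). Of 5 crosslinking genes, 0 were called as well. The lysyl oxidase family genes Loxl1 and Loxl3 changed by 0.34 ± 0.11 and 0.19 ± 0.06 (SE), with limma adjusted p-values of 0.257 and 0.322. Pxdn, the peroxidase that forms the sulfilimine bonds between type IV collagen trimers, changed by 0.05 ± 0.08 (SE, limma adjusted p = 0.901) and was named after its value was seen.

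No gene passed among 11 receptors and binders. Ddr2, a collagen receptor tyrosine kinase, changed by 0.34 ± 0.09 (SE, limma adjusted p = 0.173), and Nid1, which encodes nidogen, a link between the laminin and type IV collagen networks, by 0.23 ± 0.09 (SE, limma adjusted p = 0.390). Among 12 genes of degradation and its inhibitors, Mmp2 rose and 0 fell. MMP2 is a gelatinase that also cleaves type IV collagen. Its probe set 1416136_at (chromosome 8) read 11.95, 12.11, 12.39, 12.19 and 12.00 in mutants 1 to 5, against 11.32, 11.65, 11.59, 11.51 and 11.71 in wild types 1 to 5, with no overlap. The rise was 0.57 ± 0.10 (SE, n = 5 each, limma adjusted p = 0.0213), and its other probe set, 1439364_a_at, rose by 0.50 ± 0.09 (SE, limma adjusted p = 0.0251). Mmp3, a stromelysin, changed by 0.54 ± 0.12 (SE, limma adjusted p = 0.0815).

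Laminins undergo an embryonic to mature exchange in the same membrane. Of the 2 early chains, Lama1 rose and Lamb1 did not pass (0.09 ± 0.10 SE, limma adjusted p = 0.843). Lama1 1418153_at (chromosome 17) read 6.39, 6.28, 6.01, 6.94 and 6.73 in mutants 1 to 5, against 5.15, 5.94, 5.39, 5.42 and 5.61 in wild types 1 to 5. Every mutant was above every wild type, and the rise was 0.96 ± 0.18 (SE, n = 5 each, limma adjusted p = 0.0362). Of the 3 mature chains 0 were called, with Lamc1, which is also part of the early trimer, at 0.12 ± 0.07 (SE, limma adjusted p = 0.665) and Lamb2 at -0.11 ± 0.13 (SE, limma adjusted p = 0.854). Leaving out single mice ended the Mmp2 call for mutants 2 and 4 and wild types 1, 3 and 4 (adjusted p up to 0.0679), and the Lama1 call held without mutant 3 or wild type 2 and was lost otherwise (up to 0.106).

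Of 4 measured transcription factors that act in podocytes, 0 were called. Wt1 itself changed by 0.33 ± 0.10 (SE, limma adjusted p = 0.244) and Foxc2, a forkhead factor, by -0.37 ± 0.14 (SE, limma adjusted p = 0.412). Lmx1b, whose product regulates Col4a3 and Col4a4 in mice, changed by -0.37 ± 0.16 (SE, limma adjusted p = 0.510) and was named after its value was seen.

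**Figure D5:**
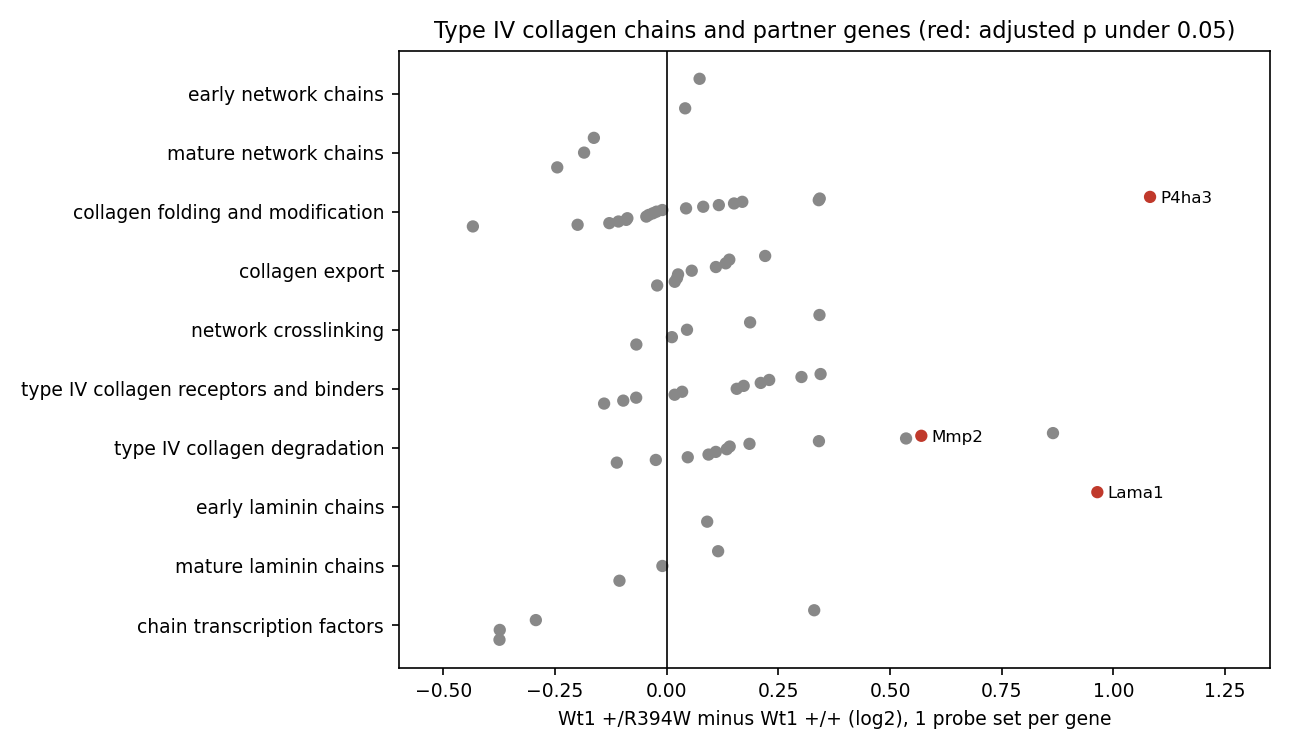
Change between Wt1 +/R394W and Wt1 +/+ glomeruli (log2, n = 5 mice each) for the embryonic and mature chains and their partner genes. Each gene has 1 point, in rows by list, and red points have an adjusted p under 0.05 (limma, over all probe sets). Col4a6 is not plotted. P4ha3, Mmp2 and Lama1 stand to the right of the other points of their rows except Mmp10, which lies right of Mmp2 at 0.86 with a limma adjusted p of 0.538. No type IV collagen chain plotted is called.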

How the data were processed

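The authors deposited log2 expression values with 1 column per mouse, made with RMA per the submitters' processing notes (background correction, quantile normalization, probe summary). Neither the version and settings of RMA nor a genome build is given in the sources used here. All 10 columns were used. After removal of 64 Affymetrix controls from 45101 probe sets, 34945 had 1 gene in the platform annotation, 932 several and 9160 none, and 34741 matched RefSeq by gene number. The brightest probe set on average stood for each gene. The genotype difference was fitted in limma (version 3.58.1 in R 4.3.3) without covariates, with Benjamini-Hochberg adjustment over 45037 probe sets. This fit was first tested on simulated data with 200 changed probe sets. It recovered 52% of them at a change of 0.5, 94% at 1 and 99.5% at 2. False calls made up 7.14%, 7.39% and 1.49% of its calls in the same order. Changes as small as those of the chains, all under 0.5 in size, were not simulated. Correlations used scipy (version 1.17.1). Litters are unknown, so no pairs were fitted. The number of arrays limits precision, and intervals are at 95%. Genes were named by rule: all chains, called partners, the 2 partners per list with the smallest p, and the 5 genes most like Col4a1, Col4a3 and Col4a5. Alternatives covered normalization, filters, variance models, thresholds, gene means, a tubule covariate, animal-number runs and left-out mice. Members and lists were chosen with earlier results of these data known.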

Additional observations from a re-analysis of the deposited data

Results flagged for a closer look

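In 1 of 36 groups of 5 mice examined (12 chain probe sets, 3 network values and 3 called partners, in each genotype), a mouse stood far from the others of its genotype. Mutant 4 read 6.92 for Col4a6 1421006_at, where the next mutant read 7.36. This gap was 0.718 of the whole range of the mutants. Chance sets apart about 1 group in 20. Without mutant 4 the Col4a6 change was 0.07 (limma adjusted p = 0.845). Mutant 4 also had the highest tubule score of the 10 arrays, 9.75, and the part of this in the Col4a6 reading was not tested.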

How the results depend on the processing

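None of the 12 type IV collagen probe sets was called under any of the 21 alternatives. Their signs held except for Col4a1 1426348_at (3 of 21 turned), Col4a4 1425772_at (5) and Col4a6 1421006_at (3). The embryonic network difference ran from 0.03 to 0.09 and the mature one from -0.25 to -0.15 when single mice were left out. The count over all probe sets, 384, was 144 at an adjusted p under 0.01, 110 with only mice in runs of neighbouring animal numbers, 126 with the run as a block, and 216 to 301 with 1 mouse left out (242 without wild type 1, 216 without wild type 4). Those runs held 4 mutants and 3 wild types, so fewer samples entered. The 3 called partners became 1 at a mean signal of at least 6, which leaves P4ha3 and Lama1 untested, 1 at an adjusted p under 0.01, 1 in the runs of animal numbers with or without the block, and 1 to 3 with 1 mouse left out. These were not always the same genes: without mutant 1 Lama1 gave way to P3h3, and without wild type 5 to Mmp3. Under array weights Lama1 was lost (adjusted p = 0.0526). With the tubule score as a covariate 5 were called, adding Mmp3 (0.59, adjusted p = 0.0120) and P3h3 (0.37, adjusted p = 0.0304), and the cause was not tested. The P4ha3 call held under all 20 alternatives that kept it. No paired analysis was possible because the labels give no litters and no shared replicate numbers. RMA values carry no background measure, so detection of the dim probe sets of P4ha3, Lama1 and Col4a6 was not assessed.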
